A study of Mus musculus with 8 samples.

Results

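The 6 conventional actin genes of the mouse (Actc1, Acta1, Acta2, Actb, Actg1 and Actg2) were followed in cultures of embryonic heart cells on a soft and on a stiff surface. Members were the rows whose Ensembl gene ID maps to these symbols, and all 6 were found among the 29844 genes of the coding table. Hearts were dissected from E18.5 embryos, late in gestation. The mice were B6.Cg-Tg(HIST1H2BB/EGFP)1Pa/J, so that every library carries the transgene for a histone H2B fused to a green fluorescent protein. The digested cells, labelled embryonic cardiomyocytes, were plated on polydimethylsiloxane, a silicone rubber, of about 10 kPa (soft, 4 libraries) or about 150 kPa (stiff, 4 libraries). After 4 days in serum-containing medium, when the layer was confluent and beating, total RNA was taken. Both groups share genotype, age, medium and time, and differ in the substrate. The labels name no purification of cardiomyocytes and no promoter for the transgene. Whether the 4 libraries of a group had their own litters or dishes is not in the labels, so a p-value here is set against a spread that can be technical in part. Libraries are numbered 1 to 4 by the last digit of their code, and no label says what that digit stands for. The codes of soft and stiff libraries begin differently, and anything that goes with the code cannot be told apart from the substrate.

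Actin monomers assemble into the thin filaments of the sarcomere and into the filaments of the cell cortex, stress fibres and adhesions. Mammals make these monomers from a small gene family whose proteins are nearly alike and whose expression follows the tissue: cardiac (Actc1) and skeletal (Acta1) alpha actin fill the sarcomere, alpha (Acta2) and gamma (Actg2) smooth muscle actin the contractile bundles of smooth muscle, and beta (Actb) and gamma (Actg1) cytoplasmic actin are found in almost every cell. The fetal heart uses Actc1 as its main sarcomeric isoform and expresses Acta1 beside it, and Acta2 is also transcribed by immature cardiomyocytes and by myofibroblasts. Transcription of the family is tied to the state of actin itself: free monomers hold back the coactivators MRTF-A and MRTF-B, and when filaments grow these enter the nucleus and act with serum response factor (SRF) on the CArG box, a short DNA element.

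Promoter windows of Actc1, Acta1 and Actg1 are printed because each holds an exact match to the CArG box. Of the 6 genes 4 were matched to a RefSeq window, these and Acta2. Each window is the 250 bases before an annotated start on GRCm38.p6, on the strand of the gene. Capitals mark the CArG box (2 C, then 6 letters that are A or T, then 2 G, a form that reads alike on both strands) and the CArG-like form in which 1 of the 6 central letters is G or C. All 4 genes lie on the minus strand. The windows are chr2:114052876-114053125 for Actc1, chr8:123894776-123895025 for Acta1, chr19:34255374-34255623 for Acta2 and chr11:120348496-120348745 for Actg1. The Acta2 window lies largely inside the annotated span of the gene, which ends at 34255585, so it can hold transcribed bases of a longer form, and only its matching words are given.
Actc1: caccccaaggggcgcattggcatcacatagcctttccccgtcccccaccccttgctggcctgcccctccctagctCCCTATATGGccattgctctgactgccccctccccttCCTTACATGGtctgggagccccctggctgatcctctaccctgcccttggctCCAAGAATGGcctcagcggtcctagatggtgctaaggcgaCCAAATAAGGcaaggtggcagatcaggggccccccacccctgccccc
Acta1: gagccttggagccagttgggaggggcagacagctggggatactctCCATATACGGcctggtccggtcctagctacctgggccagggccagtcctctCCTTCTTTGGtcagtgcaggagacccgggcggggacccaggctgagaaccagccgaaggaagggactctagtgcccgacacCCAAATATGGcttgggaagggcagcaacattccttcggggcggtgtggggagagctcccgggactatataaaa
Actg1: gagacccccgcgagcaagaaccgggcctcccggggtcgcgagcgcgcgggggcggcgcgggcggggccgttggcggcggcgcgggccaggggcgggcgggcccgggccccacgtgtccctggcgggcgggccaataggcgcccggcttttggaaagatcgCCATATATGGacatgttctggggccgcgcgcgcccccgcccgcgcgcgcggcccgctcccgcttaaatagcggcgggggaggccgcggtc

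Actc1 had a CArG box, CCAAATAAGG, beginning 47 bases before the start, and 3 CArG-like words, CCAAGAATGG at 87, CCTTACATGG at 138 and CCCTATATGG at 175 bases. Acta1 had a box, CCAAATATGG, at 73 bases and CArG-like words at 154 and 205 bases. Acta2 had no exact box in the window and 2 CArG-like words, CCCTATATGG at 84 and CCTTGTTTGG at 34 bases, and the first of these is the same word as in Actc1. Actg1 had a box, CCATATATGG, at 90 bases and no CArG-like word. Over all 32851 RefSeq windows of this length, 1.47% held a CArG box and 7.24% a CArG-like word. These matches describe letters and not occupied sites, and no measurement of SRF binding enters here.

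Coding totals ran from 27646471 to 34693673 reads per library, and levels are given as CPM, the counts scaled to a common library size, with TMM (trimmed mean of M-values) factors. The tables used here give no transcript lengths, so levels of different actin genes are reads and not molecules per length, and are not ranked against each other as transcript abundance. Actin coding regions are close to identical and the mouse genome holds processed copies, so that some reads cannot be assigned to a single gene, and the sources used here do not give the treatment of shared reads. The row of the gamma actin pseudogene Actg-ps1 and that of the actin-like gene Actbl2 held 0 counts in all 8 libraries. Of 13 cardiomyocyte markers 13 passed the filter on low counts, and their summed level was 15847 to 27385 CPM on soft and 15452 to 24646 CPM on stiff. Of 11 fibroblast markers 11 passed, summing to 8381 to 14803 CPM on soft and 7670 to 12255 CPM on stiff. Of 11 smooth muscle and pericyte markers 11 passed, with sums of 1254 to 1795 and 1013 to 1584 CPM, of 7 endothelial markers 7 with 157 to 244 and 182 to 272 CPM, and of 6 leukocyte markers 6 with 105 to 175 and 104 to 153 CPM. None of these 5 lists had a member at 0 in all libraries. In RNA from mixed cells, fewer cells of a type and less RNA per cell cannot be told apart.

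No actin gene passed the test between substrates, and the soft and stiff libraries overlapped for each of the 6. The isoforms differed instead in how far single libraries stood from each other. Acta1 spanned 13.7-fold over the 8 libraries, Actg2 6.07-fold and Actc1 2.70-fold, against 1.88-fold for Acta2, 1.65-fold for Actb and 1.56-fold for Actg1. The libraries that were high for an isoform on soft tended to carry the same number on stiff: both libraries numbered 4 led in Actc1 and Acta1, and both numbered 3 in Acta2 and Actg2.

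**Figure D1:**
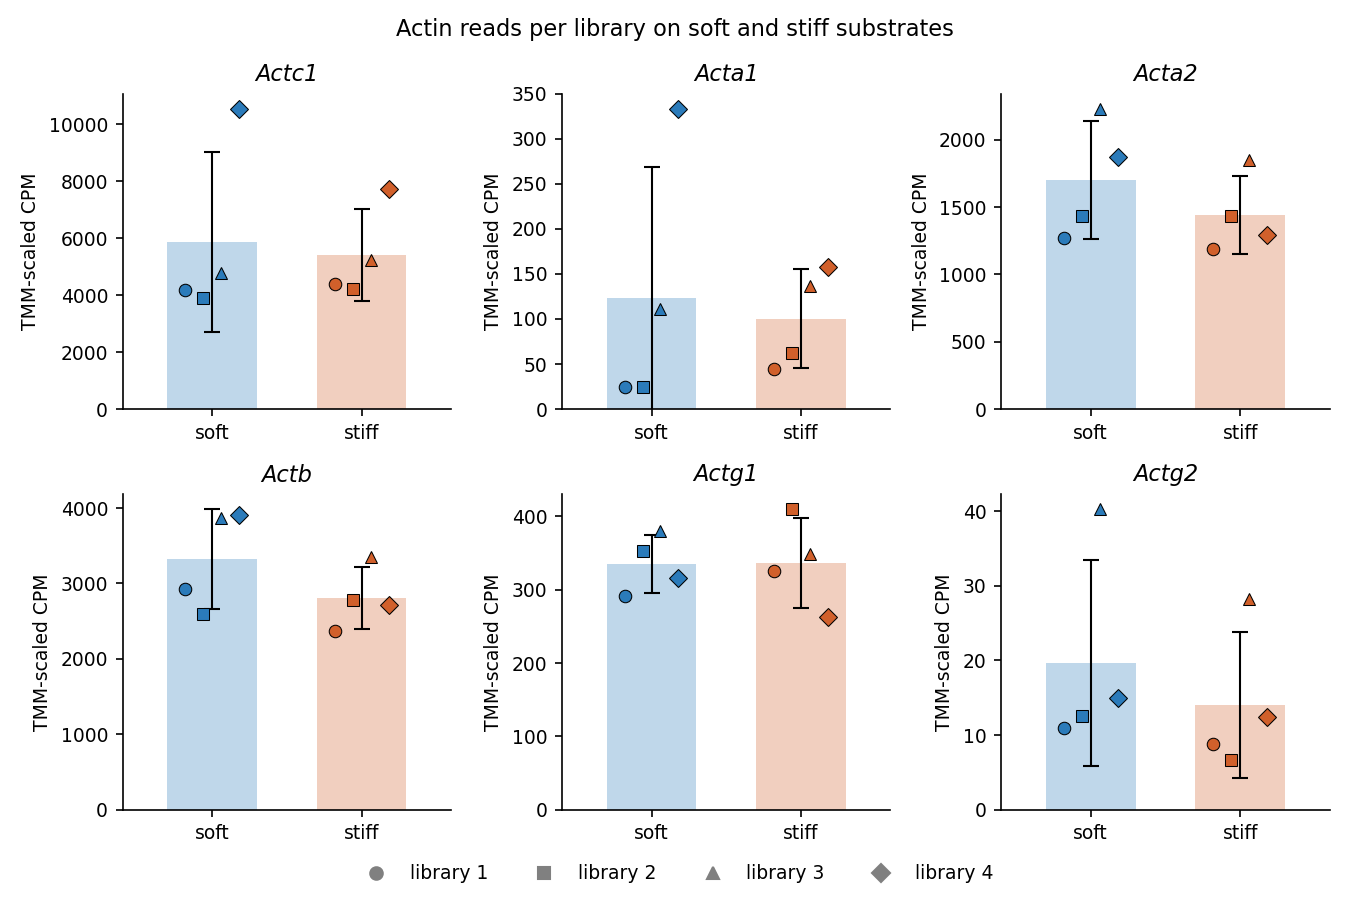
TMM-scaled CPM of each actin gene (vertical axis, starting at 0) in the 4 soft and 4 stiff libraries. Points are libraries, with the marker giving the library number, bars are means and lines are 1 SD (the lower end for Acta1 on soft falls under 0 and is not drawn). Libraries 4 are the highest for Actc1 and Acta1 and libraries 3 for Acta2 and Actg2 on both substrates.

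Actc1, at chromosome 2 from 114047282 to 114052875, encodes cardiac alpha actin. It stood at 4195, 3905, 4796 and 10552 CPM in soft libraries 1 to 4 and at 4406, 4233, 5247 and 7745 CPM in stiff libraries 1 to 4. Libraries 4 stood above all others on both substrates, and the other 6 lay between 3905 and 5247 CPM. Soft libraries averaged 5862 ± 3148 CPM and stiff libraries 5408 ± 1619.8 CPM (± SD, n = 4 per substrate), for a log2 fold change of -0.12 (SE 0.31, 95% interval -0.78 to 0.55; edgeR adjusted p = 0.99997). Without soft 4 the log2 fold change was 0.34. By reads Actc1 had rank 3 of the 14059 tested genes.

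The summed cardiomyocyte markers were also high in libraries 4. The sum of the 13 was 27385 CPM in soft 4 and 24646 CPM in stiff 4, against 15452 to 19969 CPM in the other 6 libraries. Myh6, the alpha myosin heavy chain gene, stood at 7425 CPM in soft 4 and 5187 CPM in stiff 4, against 2634 to 3964 CPM elsewhere. Tnnt2, cardiac troponin T, stood at 4026 and 3092 CPM in these libraries and at 2076 to 2677 CPM in the others. Myh7, the beta myosin heavy chain gene, named after its values were seen, went the other way, with 780.0 CPM in soft 4 and 502 CPM in stiff 4 against 1243 to 2184 CPM in the other 6. The remaining markers were split. Tnni3, Tnnc1, Myl4, Actn2, Mybpc3 and Ttn were highest in library 4 of each substrate. Tnni1, Myl3 and Myl7 led in soft 4 but not in stiff 4, where Myl7, at 436 CPM, was the lowest of the stiff libraries. Ryr2 led in stiff 4 but stood at 1727 CPM in soft 4 against 1932 CPM in soft 2. Ttn, the titin gene, stood at 8696 CPM in stiff 4 against 3840 to 5997 CPM elsewhere. Per 100 CPM of the summed cardiomyocyte markers, Actc1 held 38.5 CPM in soft 4 and 31.4 CPM in stiff 4, and 22.1 to 30.3 CPM in the other 6. The part of cardiomyocyte content in the level of Actc1 was not tested.

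Acta1, at chromosome 8 from 123891758 to 123894775, encodes skeletal alpha actin, a sarcomeric isoform of the fetal heart that is also known to return in the overloaded adult heart. It stood at 24.3, 24.6, 111 and 332 CPM in soft libraries 1 to 4 and at 45.0, 62.3, 137 and 157 CPM in stiff libraries 1 to 4. On both substrates libraries 1 and 2 were low and libraries 3 and 4 high, and the stiff values lay inside the soft range. Soft libraries averaged 123 ± 145 CPM and stiff libraries 100.3 ± 55.0 CPM (± SD, n = 4 per substrate). The edgeR log2 fold change was -0.30 (SE 0.96, 95% interval -2.59 to 1.997, adjusted p = 0.99997). That interval runs from 0.166-fold to 3.99-fold, and a change of Acta1 within it could not be told from none. The direction was not stable: limma-voom gave 0.37, edgeR with the library number as a replicate block 0.37, and edgeR without soft 4 gave 0.92. Between libraries of the same number, stiff was above soft 1.85-fold, 2.53-fold and 1.23-fold for numbers 1 to 3 and stood at 0.474 of soft for number 4.

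Acta1 is also a gene of skeletal muscle, and the skeletal list was read beside it. Myod1, Myf5 and Pax7, the regulators that define skeletal myoblasts and satellite cells, were at 0 counts in all 8 libraries. Myogenin (Myog) was at 0 in 5 libraries and at 0.640 CPM or less in the other 3, and Myh3, embryonic myosin, reached 0.480 CPM. Mylpf, a fast myosin light chain gene, reached 1.52 CPM and Tnnt3, fast troponin T, ran from 7.45 to 21.6 CPM. Ckm, the muscle creatine kinase gene that the heart also expresses, stood at 278 CPM in soft 4 and at 51.1 to 86.5 CPM in the other 7. Of the 8 skeletal markers 3 were at 0 throughout, and their sum was 301 CPM in soft 4 and 65.5 to 104 CPM elsewhere, nearly all of it Ckm and Tnnt3. Per 100 CPM of cardiomyocyte markers, Acta1 held 0.142, 0.150, 0.702 and 1.21 CPM in soft libraries 1 to 4 and 0.225, 0.403, 0.785 and 0.639 CPM in stiff libraries 1 to 4. Libraries 3 and 4 were above libraries 1 and 2 on this scale too. The part of skeletal or cardiac muscle content in the level of Acta1 was not tested.

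Acta2, at chromosome 19 from 34240336 to 34255585, encodes alpha smooth muscle actin, a marker of smooth muscle and of activated fibroblasts. It stood at 1270.2, 1432, 2231 and 1871 CPM in soft libraries 1 to 4 and at 1188, 1431, 1852 and 1296 CPM in stiff libraries 1 to 4. Libraries 3 were the highest on each substrate. Soft libraries averaged 1701 ± 435 CPM and stiff libraries 1442 ± 291 CPM (± SD, n = 4 per substrate), and the log2 fold change was -0.24 (SE 0.21, 95% interval -0.68 to 0.20; edgeR adjusted p = 0.99997). In same-numbered comparisons stiff stood at 0.935, 0.830 and 0.693 of soft for numbers 1, 3 and 4, and was level with soft for number 2, at 0.999. Without soft 3 the log2 fold change was -0.08.

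Actg2, at chromosome 6 from 83512909 to 83536251, encodes gamma smooth muscle actin, typical of gut and bladder muscle. It was the member with the fewest reads, 195 to 1133 per library. It stood at 11.0, 12.6, 40.3 and 14.9 CPM in soft libraries 1 to 4 and at 8.74, 6.64, 28.2 and 12.5 CPM in stiff libraries 1 to 4. Libraries 3 stood apart from the others on both substrates. Soft libraries averaged 19.7 ± 13.8 CPM and stiff libraries 14.02 ± 9.77 CPM (± SD, n = 4 per substrate), for a log2 fold change of -0.49 (SE 0.50, 95% interval -1.57 to 0.59; edgeR adjusted p = 0.99997). Stiff was below soft in 4 of 4 same-numbered comparisons, at 0.797, 0.529, 0.7002 and 0.834 of soft. The estimate rested on the libraries numbered 3: without soft 3 the log2 fold change was 0.13, and without stiff 3 it was -1.08 (edgeR unadjusted p = 0.0296, adjusted p = 0.9999).

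Smooth muscle markers were read beside both genes. Their sum, with Tagln as its largest member, was highest in library 3 of each substrate, at 1795 CPM in soft 3 and 1584 CPM in stiff 3, against 1254 to 1527 and 1013 to 1421 CPM in the others. Myh11, smooth muscle myosin, stood at 19.1 CPM in soft 3 and 7.85 to 12.5 CPM in soft 1, 2 and 4, and at 9.27 CPM in stiff 3 within a stiff range of 4.26 to 11.3 CPM. Tagln, an actin-binding protein of smooth muscle, stood at 1115 CPM in soft 3 and 933 CPM in stiff 3, within 455 to 1115 CPM over all 8. Other members of the list did not share this order. Notch3, a receptor gene of mural cells, was lowest in library 3 of each substrate, at 35.3 CPM (soft, next 36.1) and 22.8 CPM (stiff, next 28.3). Mylk, myosin light chain kinase, was lowest of the stiff libraries in stiff 3, at 42.2 CPM, and stood at 42.8 CPM in soft 3 against 95.3 and 68.3 CPM in soft 1 and soft 2. Per 100 CPM of these markers, Actg2 held 2.24 CPM in soft 3 and 1.78 CPM in stiff 3, against 0.467 to 1.23 CPM in the other 6. On that scale Acta2 varied less, from 85.6 to 128 CPM. Per 100 CPM of the fibroblast markers, Acta2 held 12.6 CPM in soft 4 and 11.3 CPM in stiff 4, and 15.1 to 15.9 CPM in the other 6. The part of smooth muscle or fibroblast content in these levels was not tested.

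Actb, at chromosome 5 from 142903115 to 142907976, encodes beta cytoplasmic actin and is a common reference gene. It stood at 2928, 2598, 3866 and 3905 CPM in soft libraries 1 to 4 and at 2367, 2776, 3356 and 2720.2 CPM in stiff libraries 1 to 4. Soft 3, soft 4 and stiff 3 were high and the other 5 lay at 2928 CPM or below. Soft libraries averaged 3324 ± 662 CPM and stiff libraries 2805 ± 409.6 CPM (± SD, n = 4 per substrate). Its log2 fold change was -0.25 (SE 0.19, 95% interval -0.65 to 0.16), the smallest p of the family at 0.216 before adjustment (edgeR adjusted p = 0.99997). Stiff was below soft for numbers 1, 3 and 4 and above it, 1.07-fold, for number 2. The sum of the fibroblast markers, most of it from collagen genes, was higher in libraries 3 and 4 of each substrate. It stood at 14402 and 14803 CPM on soft and 12255 and 11456 CPM on stiff, against 7670 to 9139 CPM in libraries 1 and 2. In stiff 4 the 2 differed: the sum was high there, while Actb, at 2720.2 CPM, was below stiff 2. Among the fibroblast markers Col1a1, a fibrillar collagen gene, stood at 2829 CPM in soft 3 and 3125 CPM in soft 4 and at 1360 to 2098 CPM elsewhere. Its partner Col1a2 stood at 5047 to 5951 CPM in soft 3, soft 4 and stiff 3 and at 3210 to 4170 CPM in the other 5. The list did not move as one: Pdgfra, a receptor gene that marks fibroblasts, was lower in libraries 3 and 4, at 144 and 211 CPM (soft) and 151 and 252 CPM (stiff), than in libraries 1 and 2, at 276 to 303 CPM. Per 100 CPM of fibroblast markers the order was the opposite: Actb held 26.8 and 26.4 CPM in soft 3 and soft 4 against 34.9 and 28.4 CPM in soft 1 and soft 2, and 27.4 and 23.7 CPM in stiff 3 and stiff 4 against 30.9 and 30.8 CPM in stiff 1 and stiff 2. The part of fibroblast content in the level of Actb was not tested.

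Actg1, at chromosome 11 from 120345687 to 120348495, encodes gamma cytoplasmic actin. It stood at 291, 353, 380.2 and 316 CPM in soft libraries 1 to 4 and at 326, 410.2, 348 and 262 CPM in stiff libraries 1 to 4. Its order of libraries was another: stiff 4 was the lowest library and stiff 2 the highest. Soft libraries averaged 335 ± 39.4 CPM and stiff libraries 337 ± 61.1 CPM (± SD, n = 4 per substrate), for a log2 fold change of 0.01 (SE 0.18, 95% interval -0.37 to 0.38; edgeR adjusted p = 0.99997). The interval runs from 0.776-fold to 1.30-fold, the narrowest of the 6.

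All 6 genes passed the filter on low counts, and edgeR called 0 of 6 at an adjusted p under 0.05, as it called 0 of 14059 genes (0%). At an unadjusted p under 0.05 there were 0 of 6, against 130 of 14059 (0.925%). DESeq2 and limma-voom called 0 of 6 as well and 0 genes in all, with 322 of 17351 and 181 of 14059 at an unadjusted p under 0.05. The substrates did not overlap for 0 of 6, against 181 of 14059 genes (1.29%). Of the 6 estimates 5 were lower on stiff, with a median of -0.24, while 7300 of 14059 genes (51.9%) were lower and the median of all was -0.01. With the library number as a replicate block edgeR again called 0 of 6 and 0 of 14059, and 5 of 6 were lower. That fit left the same number below 0 but not the same genes, since Acta1 turned to 0.37 and Actg1 to -0.0042. Limma-voom with the same block called 8 of 14059 genes (0.0569%) and 0 of 6.

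**Figure D2:**
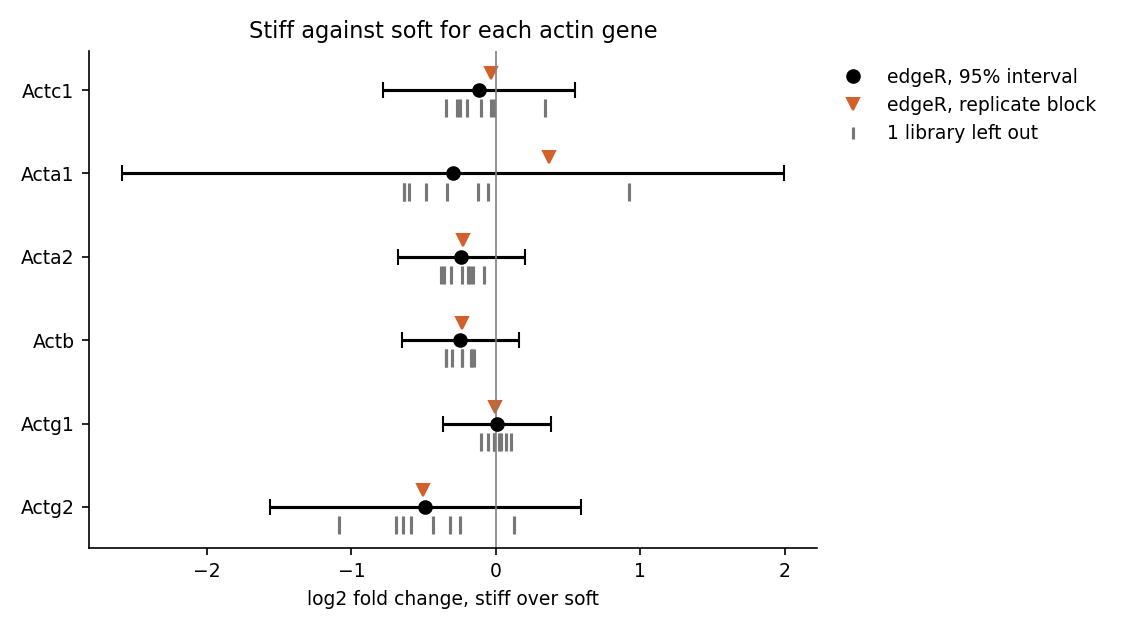
Log2 fold change, stiff over soft, of each actin gene (horizontal axis), with the edgeR estimate and its 95% interval, the edgeR estimate with the library number as a replicate block, and the estimates with 1 library left out. All 6 intervals include 0, and Acta1 has the widest, from -2.59 to 1.997.

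The spread between libraries was set against that of other genes. The SD of log2 CPM within substrates was 1.44 for Acta1, 0.88 for Actg2, 0.55 for Actc1, 0.33 for Acta2, 0.25 for Actb and 0.22 for Actg1, with a median of 0.41 over all tested genes and 0.28 over those with a mean of 32 CPM or more. Among genes at that level, 99.9% had a lower SD than Acta1 and 94.4% a lower SD than Actc1, while 39.0% were below Actb and 28.4% below Actg1. The mean of Actg2 was 16.9 CPM, and 81.4% of all tested genes had a lower SD. Split by library number, substrate and the rest, the sum of squares of log2 CPM lay mainly with the number: 93.5% for Actc1, 87.6% for Actg2, 84.8% for Acta1, 75.4% for Acta2, 73.2% for Actg1 and 58.1% for Actb. The substrate held 22.1% for Actb, 13.6% for Acta2, 9.90% for Actg2, 2.06% for Acta1, 0.117% for Actc1 and 0.0121% for Actg1. The medians over all tested genes were 55.0% for the number and 4.79% for the substrate. Among genes at 32 CPM or more they were 59.1% and 3.57%, so that Actb lay just under the usual share for the number. The number has more levels than the substrate and so takes a larger share even where neither has an effect. These shares describe the 8 libraries and carry no test.

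The reads of the 6 genes together made up 0.880%, 0.816%, 1.16% and 1.68% of coding counts in soft libraries 1 to 4 and 0.847%, 0.868%, 1.13% and 1.20% in stiff libraries 1 to 4. Libraries 1 and 2 were low and libraries 3 and 4 high on each substrate. The mean was 1.13% ± 0.392 on soft and 1.01% ± 0.181 on stiff (SD, n = 4 each). The difference, stiff minus soft, was -0.122 percentage points and turned to 0.0595 without soft 4. This total held 236603 to 514948 reads per library, and the 95% Wilson interval of a share within it reached at most 0.201 percentage points to either side, which covers counting error only.

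Within the total, Actc1 held 48.1%, 46.9%, 42.0% and 62.1% of actin reads in soft libraries 1 to 4 and 52.8%, 47.5%, 47.8% and 63.5% in stiff libraries 1 to 4. Libraries 4 again stood above the rest on both substrates. The mean share was 49.8% ± 8.64 on soft and 52.9% ± 7.48 on stiff (SD, n = 4 each). The difference of 3.14 percentage points was 7.25 without soft 4 and -0.400 without stiff 4. Acta1 held 0.279%, 0.295%, 0.974% and 1.96% on soft and 0.540%, 0.698%, 1.25% and 1.29% on stiff. Its share, like its level, was higher in libraries 3 and 4 than in libraries 1 and 2, and averaged 0.876% ± 0.789 on soft and 0.944% ± 0.381 on stiff.

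Actb held 33.6%, 31.2%, 33.8% and 23.0% on soft and 28.4%, 31.1%, 30.6% and 22.3% on stiff, with means of 30.4% ± 5.09 and 28.1% ± 4.04 (SD, n = 4 each). Acta2 held 14.6%, 17.2%, 19.5% and 11.0% on soft and 14.2%, 16.0%, 16.9% and 10.6% on stiff, with means of 15.6% ± 3.66 and 14.5% ± 2.78. Both shares were lowest in libraries 4, although the level of Actb in soft 4 was the highest of all 8. Actg1 held 1.86% to 4.24% on soft and 2.15% to 4.60% on stiff, again lowest in libraries 4. Actg2 held 0.0880% to 0.353% on soft and 0.0744% to 0.257% on stiff, highest in libraries 3. Grouped by tissue class, the sarcomeric isoforms made up 50.7% ± 9.24 of actin reads on soft and 53.9% ± 7.65 on stiff, the cytoplasmic ones 33.6% ± 5.88 and 31.6% ± 4.94, and the smooth muscle ones 15.8% ± 3.76 and 14.6% ± 2.82 (SD, n = 4 each). The substrates overlapped for every isoform's share. Each difference between substrate means was smaller than the SD of either group.

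**Figure D3:**
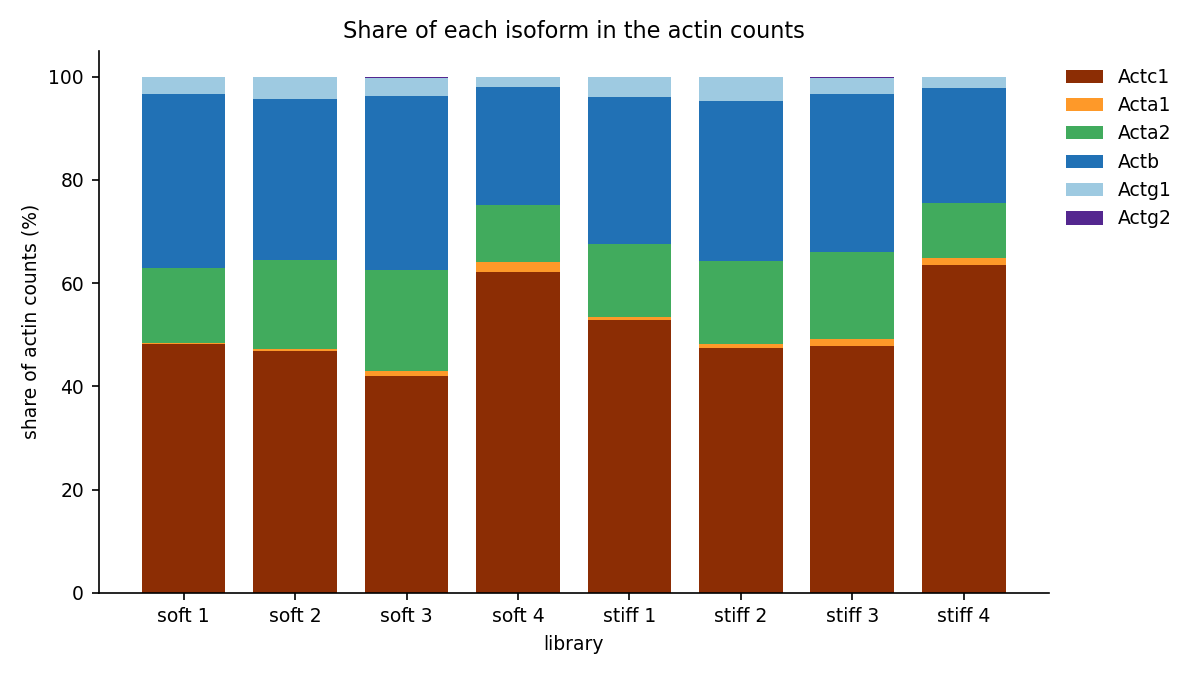
Share of each actin gene in the actin counts of a library (vertical axis, percent), 1 bar per library. The Actc1 part is largest in soft 4 (62.1%) and stiff 4 (63.5%), and the Acta1 and Actg2 parts are too thin to read in most bars.

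Ratios between isoforms in a library do not depend on how libraries are scaled, and 3 were compared by exact permutation of the substrate labels (two-sided), with p-values adjusted over the 3. The log2 ratio of Acta1 to Actc1 reads was -6.29 ± 1.26 on soft and -5.90 ± 0.58 on stiff (SD, n = 4 each; exact permutation p = 0.571, adjusted 0.629). It was -7.43 and -7.31 in soft libraries 1 and 2 and -5.43 and -4.99 in soft libraries 3 and 4. On stiff it was -6.61 and -6.09 in libraries 1 and 2 and -5.26 and -5.62 in libraries 3 and 4. The skeletal isoform was thus higher relative to the cardiac one in libraries 3 and 4 of both substrates.

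The log2 ratio of Acta2 to Actc1 was -1.69 ± 0.59 on soft and -1.88 ± 0.49 on stiff (SD, n = 4 each; exact permutation p = 0.629, adjusted 0.629). It turned to 0.0401 as a difference, stiff minus soft, without stiff 4 and to 0.0045 without soft 3. The log2 ratio of Actb to Actg1 was 3.30 ± 0.31 on soft and 3.07 ± 0.30 on stiff (exact permutation p = 0.286, adjusted 0.629). It was lower on stiff in 4 of 4 same-numbered comparisons, as was that of Acta2 to Actc1. With 4 such pairs, exact sign flips cannot give a p below 0.125, which is what both gave (adjusted 0.188).

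The members were then compared in how they varied over the 8 libraries. Pearson's r of log2 CPM was computed for all 15 pairs with exact permutation p-values, adjusted over the 15, and 3 pairs passed. By Spearman's rho, tested in the same way, 1 pair passed, Actc1 and Acta1. Actc1 and Acta1 gave r = 0.87 (exact permutation p = 2.73e-04, adjusted 0.00409) and Spearman's rho = 0.95 (exact permutation p = 0.00114, adjusted 0.0171). Without soft 4 and stiff 4, the libraries farthest from the median of Actc1, r was 0.91. Acta2 and Actb also passed by r but not by rho (exact permutation p = 0.0368, adjusted 0.184). Moreover, soft 3, soft 4 and stiff 3 stood apart from the other 5 libraries in both genes. No pooled r is given for this pair, and neither set is large enough for one of its own. Acta2 and Actg2 gave r = 0.84 (exact permutation p = 0.00747, adjusted 0.0373) and rho = 0.83 (exact permutation p = 0.0154, adjusted 0.115). Without soft 3 and soft 4, the libraries farthest from the median of Acta2, r was 0.75. Stiff 3, which stood apart in Actg2 at 28.2 CPM, was kept in that value. It therefore does not show whether the pair varies together without both libraries numbered 3.

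The remaining 12 pairs did not pass. Actc1 and Acta2 gave r = 0.29 (exact permutation p = 0.498, adjusted 0.678) and rho = 0.38 (exact permutation p = 0.360, adjusted 0.450), and r was 0.67 without soft 4 and stiff 4, so that the value rested on those libraries. Both cytoplasmic genes, Actb and Actg1, gave r = 0.17 (exact permutation p = 0.679, adjusted 0.765) and rho = 0.05 (exact permutation p = 0.935, adjusted 0.935), and r = 0.06 without soft 3 and soft 4. Actc1 and Actg1 gave r = -0.48 (exact permutation p = 0.230, adjusted 0.431) and rho = -0.38 (exact permutation p = 0.360, adjusted 0.450), and r = 0.12 without soft 4 and stiff 4. Libraries of 1 substrate number 4, too few for a correlation within it. Libraries of the same number deviated together over all genes, and if they share a source the 8 points are not independent and these p-values are too small.

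**Figure D4:**
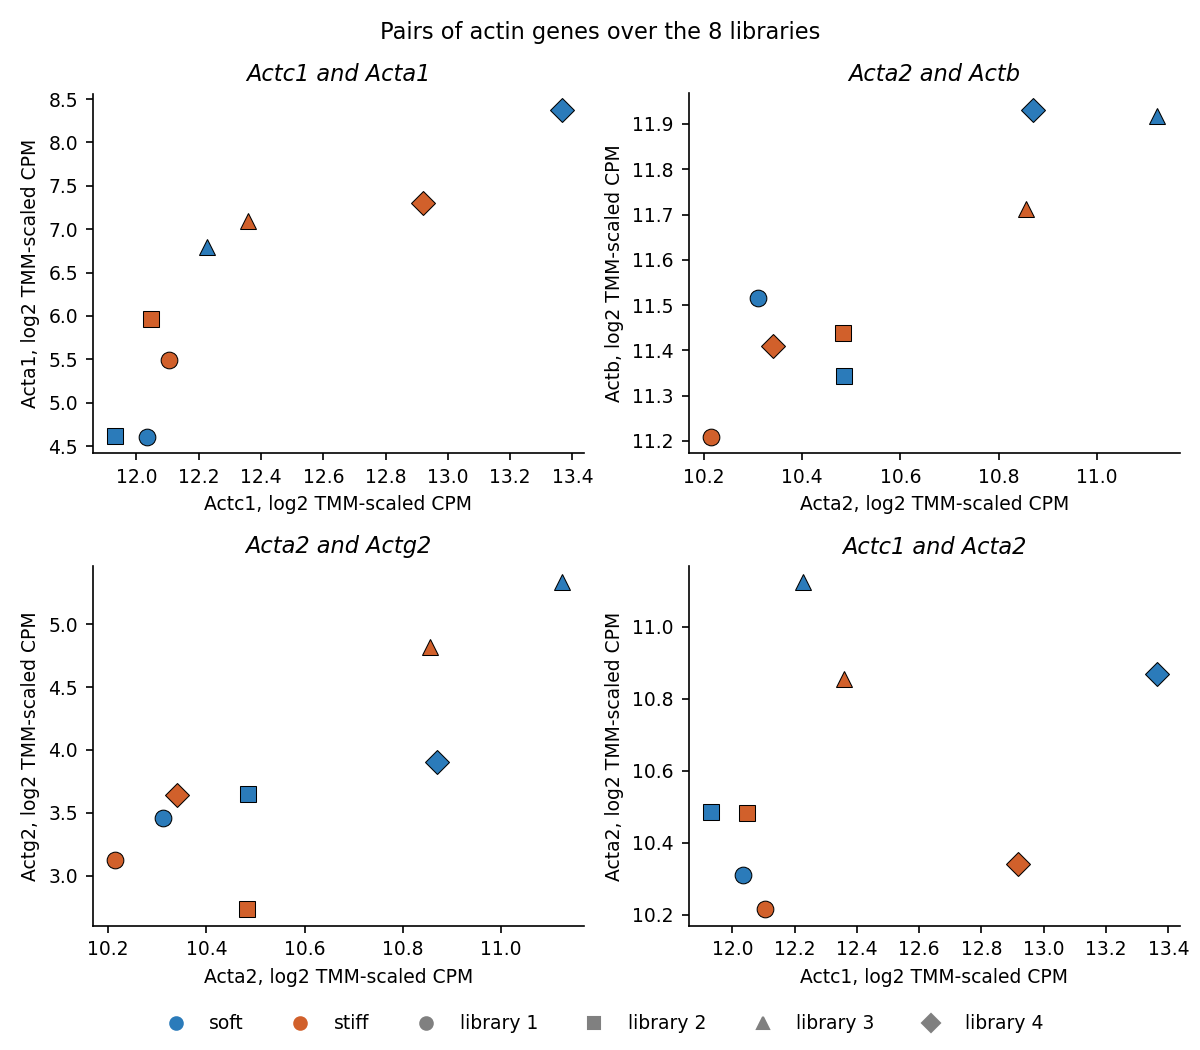
Log2 TMM-scaled CPM of pairs of actin genes, 1 point per library, with the colour giving the substrate and the marker the library number. Acta1 is higher where Actc1 is higher (r = 0.87), and in the plot of Actc1 and Acta2 both libraries numbered 4 lie to the right.

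For each member the 3 genes with the most similar pattern were taken by Pearson's r of log2 CPM over the 8 libraries, among 6187 other genes with a mean of 32 CPM or more. With 8 libraries and so many genes high values arise readily, and 92 genes had r above 0.9 with Actc1, 96 with Acta1, 26 with Actb, 14 with Acta2, 9 with Actg1 and 5 with Actg2. Nearest to Actc1 were Fads3 (r = 0.99), Plec, the gene of the cytoskeletal linker plectin (0.98), and Atf4, a transcription factor of the stress response (0.98). For Acta1 they were Tuba1b, an alpha tubulin gene (0.98), Sec61a1, a subunit of the protein channel of the endoplasmic reticulum (0.98), and Sardh (0.97). Sdc1, a cell surface proteoglycan gene (0.97), Thbs2, a matrix glycoprotein gene (0.96), and Pja1 (0.96) were nearest to Acta2. Actb was nearest to Cops7a (0.96), Col1a1 (0.95) and the chloride channel gene Clic1 (0.95). Actg1 was nearest to Pgk1, a glycolytic enzyme gene (0.96), the lysosomal protease gene Ctsl (0.95) and Brk1, a subunit of the complex that activates Arp2/3 (0.93). For Actg2 they were Nxn (0.92), Gdf6, a growth factor gene of the BMP family (0.91), and Synpo, an actin-associated protein gene (0.91).

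Genes that build, shape or read out actin filaments, and genes of actin-related proteins, were followed in 7 lists. Of 110 listed genes 106 were tested. edgeR called 0 of 106 and DESeq2 and limma-voom 0 as well, as over all genes (0%). At an unadjusted p under 0.05 there was 1 of 106, near the share of all genes (0.925%) and so no result about the lists. It was Elk4, an SRF partner averaging 89.7 ± 12.2 CPM (soft) and 118 ± 17.9 CPM (stiff) (SD, n = 4 each; log2 fold change 0.39, SE 0.18). Of the 106 estimates 66 were lower on stiff, with a median of -0.05 beside -0.01 over all genes. The substrates did not overlap for 1 of 106, no more than over all genes (1.29%), and this was Arpc1a, a subunit of the Arp2/3 complex that nucleates branched filaments.

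Among SRF and its coactivators 0 of 9 passed in either direction, 6 estimates were lower and the median was -0.04. Srf itself averaged 34.4 ± 20.2 CPM (soft) and 27.4 ± 9.72 CPM (stiff), with a log2 fold change of -0.32 (SE 0.35). Mical2, an enzyme that oxidises nuclear actin and so frees MRTF, had the most reads of this list, with 909 ± 64.1 and 909 ± 101 CPM (SD, n = 4 each). Of 16 SRF targets other than actins 12 had lower estimates, with a median of -0.12, and 0 passed. Ankrd1, a stretch-responsive nuclear and sarcomeric protein gene, averaged 4971 ± 1270.5 CPM (soft) and 5279 ± 1253 CPM (stiff). The lowest estimate was that of Myl9, a regulatory myosin light chain, at -0.34 (SE 0.35), and the highest that of Egr1, an immediate early gene, at 0.09 (SE 0.62).

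Of 16 genes of monomer binding and filament turnover 0 passed and 9 estimates were lower (median -0.06). Tmsb4x, thymosin beta 4, which sequesters monomers, averaged 1163 ± 249.1 CPM (soft) and 1055 ± 279 CPM (stiff) (SD, n = 4 each). The range ran from -0.35 (SE 0.23) for the monomer-binding gene Twf2 to 0.27 (SE 0.22) for the cofilin phosphatase gene Ssh1. Of 25 genes of nucleation and elongation 0 passed and 14 were lower (median -0.02), from the smooth muscle leiomodin Lmod1 at -0.60 (SE 0.31) to the nucleator Cobl at 0.46 (SE 0.26). Enah, which protects growing filament ends, had the most reads of that list, with 408 ± 56.4 and 439 ± 122 CPM.

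Capping and crosslinking genes had 9 of 14 lower estimates and a median of -0.06, and 0 passed. Filamin A (Flna) averaged 1528 ± 308 CPM (soft) and 1359 ± 297 CPM (stiff), the bundling protein gene Fscn1 had the lowest estimate at -0.33 (SE 0.18) and the capping protein gene Capza1 the highest at 0.14 (SE 0.19). Of 16 tested genes for actin folding and modification 10 were lower (median -0.02) and 0 passed. Tcp1, a subunit of the chaperonin that folds actin, stood at 610 ± 30.4 and 645 ± 76.0 CPM, and estimates ran from -0.16 (SE 0.21) for Pdcl3 to 0.21 (SE 0.18) for the prefoldin gene Pfdn1. Of 10 tested actin-related protein genes 6 were lower (median -0.10) and 0 passed. Actr3, a core subunit of Arp2/3, stood at 422 ± 39.2 and 424 ± 46.0 CPM, and estimates ran from -0.73 (SE 0.40) for Actr5 to 0.22 (SE 0.16) for Actr10, a dynactin subunit gene.

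**Figure D5:**
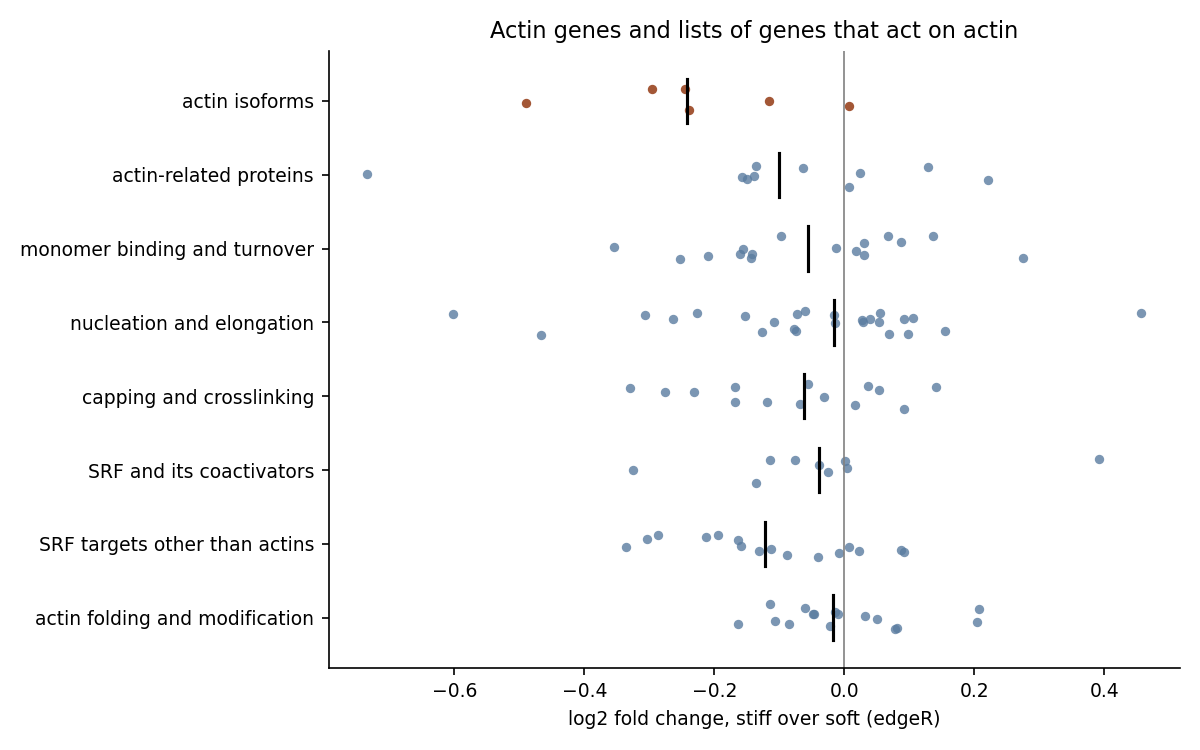
Log2 fold change, stiff over soft, of the actin genes and of the tested members of 7 lists (horizontal axis). Points are genes, spread vertically only for legibility, and black lines are medians. Medians lie between -0.12 and -0.02 for the 7 lists and at -0.24 for the 6 actin genes, and no gene shown passed the adjusted test.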

How the data were processed

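RNA sequencing of 8 libraries, 4 per substrate, was used as the table of coding genes that the authors deposited, which holds raw read counts per Ensembl gene. The submitters' processing notes name the build GRCm38 and HTSeq 0.6.1, edgeR, Cufflinks, TopHat2 2.0.14, TopHat, DESeq2, Bowtie2 and FastQC 0.11.2, without roles. For strand and shared reads the setting is not given in the sources used here. A noncoding table holds no actin row and was not used here. Groups follow the substrate label, and numbers 1 to 4 are the last digits of the library codes. Gene positions and promoters are RefSeq, GRCm38.p6.

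The test of these counts was that of edgeR 4.0.16 under R 4.3.3 (filterByExpr with minimum count 10 and minimum total 15, which kept 14059 genes, TMM, robust quasi-likelihood F test, substrate as the sole term), adjusted by Benjamini-Hochberg over all tested genes, with a call at an adjusted p under 0.05. Alternatives used other scaling, other filters, DESeq2 1.42.0, limma 3.58.1 (voom), a replicate block and each library left out. Log2 CPM for correlations has a prior count of 2, and ratios add 1 to each count. Exact permutation tests used SciPy 1.17.1 and all pairings. The pipeline was also run on simulated counts with known changes. The share of changes recovered is not reported here, so that run is not used as a measure of power.

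Deviations from the substrate means correlated between same-numbered libraries over 14059 genes at 0.104, 0.181, 0.128 and 0.305 for numbers 1 to 4. The numbers come from the library codes. Soft 1 correlated better with stiff 2 (0.112) and stiff 1 with soft 2 (0.130) than with each other. The data thus do not bear out a pairing of soft 1 with stiff 1, and same-numbered comparisons are descriptions. No label says what a number stands for, and the reported fit is unpaired.

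The members and lists were chosen with earlier results of these data known. Genes named are the 6 members, the 3 nearest in pattern to each, and the most abundant and the extreme members of each list. Myh6, Tnnt2, Myh11, Tagln, Col1a1, Col1a2 and the skeletal markers are named as well. Elk4 and Arpc1a are the single genes behind counts of 1. Arpc1a, Myh7, Pdgfra, Notch3, Mylk and the cardiomyocyte markers other than Myh6 and Tnnt2 were named after their values were seen. Levels per 100 CPM of markers were also added after the values were seen. 1 listed gene, Actmap, had no row that matched.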

Additional observations from a re-analysis of the deposited data

Results flagged for a closer look

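In 32 groups of 4 libraries examined for a library far from its neighbours, 3 held one, by Dixon's test at 95%, and chance gives about 1 in 20. Soft 4 stood at 10552 CPM of Actc1, with the next soft library at 4796 CPM and the lowest at 3905 CPM. Soft 3 stood at 40.3 CPM of Actg2, with the other soft libraries at 11.0 to 14.9 CPM. Stiff 3 held 0.257% of its actin reads in Actg2, with the other stiff libraries at 0.0744% to 0.105%.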

How the results depend on the processing

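The 6 fold changes kept their place on the uncalled side of the threshold under every alternative run. Limma-voom gave log2 fold changes of 0.37 for Acta1 and -0.0045 for Actg1, edgeR with the number as a replicate block gave 0.37 and -0.0042, and limma-voom with the replicate block (an alternative chosen after seeing the data) gave 0.0721 and -0.0037, each opposite in sign to the reported values; the cause was not tested. The replicate block changed no other direction and no call of a member, with lowest unadjusted p-values of 0.0742 (Actg2) in edgeR and 0.0387 (Actb) in limma-voom. That limma-voom fit called 8 coding genes in all (lowest adjusted p 4.03e-14), 0 of them an actin gene, and edgeR with the block called 0. Leaving out 1 library gave ranges of log2 fold changes of -0.34 to 0.34 for Actc1, -0.64 to 0.92 for Acta1, -0.38 to -0.08 for Acta2, -0.34 to -0.15 for Actb, -0.10 to 0.11 for Actg1 and -1.08 to 0.13 for Actg2, with 0 calls among 48 values and 0 coding genes called. The sign turned without soft 4 for Actc1 and Acta1, without soft 3 for Actg2, and without soft 1, soft 4, stiff 2 or stiff 3 for Actg1. The difference in log2 ratio ranged from 0.01 to 0.83 for Acta1 to Actc1, from -0.46 to 0.0401 for Acta2 to Actc1 (0.0045 without soft 3, so that the sign turned) and from -0.37 to -0.12 for Actb to Actg1. For shares of actin reads the difference, stiff minus soft in percentage points, ranged from -0.400 to 7.25 for Actc1, -0.131 to 0.428 for Acta1, -2.65 to 0.191 for Acta2, -4.77 to -0.369 for Actb, -0.178 to 0.702 for Actg1 and -0.0855 to 0.0132 for Actg2, so that the sign held for Actb alone, and from -0.228 to 0.0595 for the actin share of coding counts. The number of correlated pairs past the adjusted p was 3 as reported, 4 on deviations from the substrate mean, where Acta1 and Actb also passed (r = 0.84, exact permutation adjusted p = 0.0497), and 3 without TMM. Shares per kb of transcript were not run, because transcript lengths are not used here. Depth limits Actg2 most, at 195 to 1133 reads per library.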
